A study of Mus musculus with 10 samples.

Results

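Atg16l1 knockout (KO) was compared with wild type (WT) in the splenic dendritic cell libraries that carry the label CD11b. These are 5 of the 10 libraries of the series, 2 KO and 3 WT, and they were taken by their titles. Each came from the spleen of an individual C57BL/6 mouse of 16 weeks, with the genotype Atg16l1 -/- for KO and Atg16l1 +/+ for WT, in a series on autophagy and an atherogenesis mouse model. Cells high for CD11c and MHC class II had been sorted by flow cytometry, and strand-specific RNA sequencing libraries were made from their total RNA, per the labels' protocols. All mice of both groups shared strain and age in the labels. The deleted part of Atg16l1, and whether the deletion was limited to some cells, are not given in the sources used here.

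ATG16L1 binds the ATG5-ATG12 conjugate, and the complex attaches LC3 and its relatives to lipids of the autophagosome membrane. The same complex also lipidates LC3 on single membranes such as phagosomes, and in other cell types it takes part in the targeting of interferon-induced GTPases to vacuoles that hold parasites. Splenic conventional dendritic cells fall into a lineage that bears CD8, XCR1 and CLEC9A and cross-presents antigen (cDC1), and a lineage that bears CD11b, encoded by Itgam, and SIRP-alpha (cDC2).

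The labels' protocols describe the gate as CD11b without CD8, and the RNA of these libraries went against it. Cd8a was at 448, 578 and 460 CPM (a gene's counts relative to the library total, scaled for composition) in WT 1 to 3 and at 453 and 505 in KO 1 and 2, against 0.905 to 5.87 CPM in the 5 libraries labelled CD8. Xcr1 was at 290.0 to 442 CPM in these libraries and at 7.14 to 11.3 in those labelled CD8, and Clec9a at 541 to 667 and at 25.5 to 40.8. Itgam showed the opposite order, at 1.58 to 2.73 CPM here and at 76.1 to 104 in the libraries labelled CD8. Sirpa was at 23.9 to 29.2 and at 553 to 629 CPM. For each of the 5 marker genes the 2 sets of libraries did not overlap, and all 5 libraries labelled CD11b, of either genotype, had the pattern of cDC1. The label is kept below as the name of the libraries.

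The 5 libraries held 10037370 to 13768884 gene counts, and 16652 to 20918 genes had a count in each, the most in WT 1. Correlations of log CPM were 0.943 to 0.954 between KO and WT libraries, 0.946 to 0.954 among WT and 0.948 between the KO libraries, so the range between genotypes overlapped those within them. The first principal component of the 5 libraries held 29.7% of the variance and did not separate the genotypes, with scores of 26.1, -56.1 and -29.7 in WT and 58.0 and 1.68 in KO. Xist was at 892 to 1015 CPM in all 5.

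Of 14528 genes tested, 21 (0.145%) were called between KO and WT at an adjusted p under 0.05 by edgeR's quasi-likelihood test with Benjamini-Hochberg adjustment. The 13 genes that fell (0.0895% of those tested) all code for proteins. Of the 8 that rose (0.0551%), 4 code for proteins, and the others are an immunoglobulin constant region gene, an immunoglobulin joining segment and 2 pseudogenes of ribosomal protein genes. The groups did not overlap in any of the 21 genes, a property that 2975 tested genes (20.5%) shared. In 16 of the 21 genes the difference exceeded 2-fold. Fewer cells that express a gene and less RNA per cell cannot be told apart in bulk RNA.

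**Figure D1:**
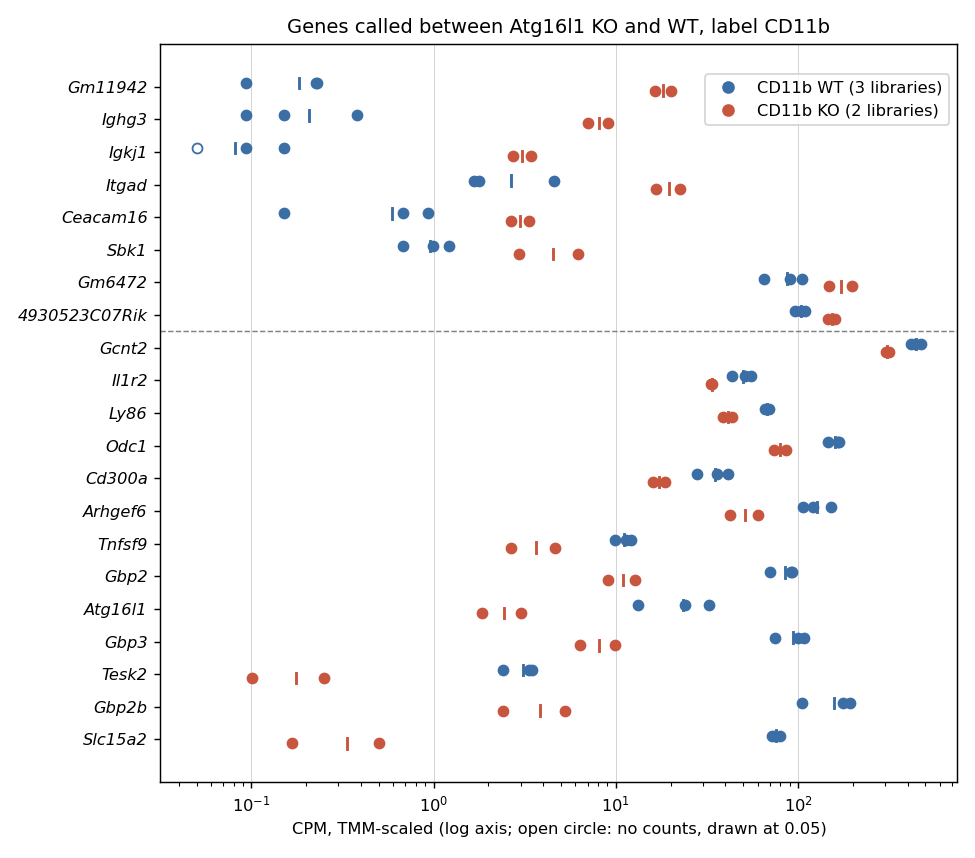
CPM (log axis) of the 21 called genes in the 3 WT (blue) and 2 KO (red) libraries of the label CD11b, with short vertical bars at the group means and an open circle for a library with no counts. Genes above the dashed line were higher in KO and those below were lower. The KO points lie apart from the WT points in every gene, from the wide gap of Slc15a2 to the narrow gaps of Gcnt2 and Il1r2.

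Atg16l1 itself fell. It was at 24.1, 32.7 and 13.3 CPM in WT 1 to 3 and at 3.03 and 1.83 CPM in KO 1 and 2, which rest on 30 and 22 counts. Both KO libraries lay below every WT library, of which WT 3 was the lowest. By edgeR the change was -3.27 ± 0.41 (log2, SE) at an adjusted p of 9.96e-05, and the call did not pass in limma-voom (adjusted p = 0.0654). The small RNA genes Gm25395 and Scarna6 lie on the same strand within Atg16l1 and were looked at after their values were seen. Gm25395 was at 8.35, 4.15 and 2.33 CPM in WT and 0.303 and 0.250 in KO, from 190 and 6 counts in all. Scarna6 fell less, with 81 counts over the 3 WT libraries and 20 over the 2 KO libraries. Of 28 tested neighbours within 1 Mb of Atg16l1 (chr1:87755870-87792428, GRCm38, plus strand), none was called by edgeR, and 1 had an unadjusted p under 0.05.

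No other gene of LC3 conjugation was called. Of 20 members tested, Atg16l1 was the one called. The median over the list was -0.03 on the log2 scale, beside -0.01 over all genes tested. Map1lc3b, which encodes LC3B, was at 25.6, 26.3 and 17.2 CPM in WT and at 32.4 and 29.0 in KO. Its log2 difference of 0.41 ± 0.22 did not pass (edgeR, adjusted p = 0.80). Atg12 had a difference of -0.41 ± 0.29, with overlapping groups. Among 27 genes of autophagy initiation and cargo receptors, edgeR, DESeq2 and limma called 0, and 0 had an unadjusted p under 0.05. The nearest was Rb1cc1, a scaffold of the initiating kinase complex, at -0.28 ± 0.17.

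Guanylate-binding proteins (GBPs) are large interferon-induced GTPases that act on vacuoles of intracellular pathogens. The 3 called members lie side by side on the plus strand of chromosome 3. Gbp2b ends 1422 bases before Gbp2, and Gbp3 lies 21637 bases before Gbp2b, with no other tested gene in either gap. Windows of 170 bases upstream of the start site are shown for these 3 genes and for their uncalled chromosome 3 neighbours Gbp5 and Gbp7, because letters of the interferon-stimulated response element recur in all 5 (RefSeq, GRCm38.p6, plus strand, chr3:142594677-142594846, chr3:142559874-142560043, chr3:142620493-142620662, chr3:142496764-142496933 and chr3:142530166-142530335 in the order printed). Capitals mark matches to the letters of that element, GAAANNGAA on either strand, of which the 2 in Gbp3 overlap. A second motif, the gamma-activated sequence TTCNNNGAA, was also searched and is not in capitals.
Gbp2b: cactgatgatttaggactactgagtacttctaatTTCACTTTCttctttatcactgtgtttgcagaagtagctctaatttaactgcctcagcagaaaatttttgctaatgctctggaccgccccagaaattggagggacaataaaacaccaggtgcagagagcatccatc
Gbp3: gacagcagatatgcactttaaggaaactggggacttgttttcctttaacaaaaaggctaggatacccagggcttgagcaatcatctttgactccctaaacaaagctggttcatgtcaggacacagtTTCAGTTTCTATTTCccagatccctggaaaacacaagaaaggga
Gbp2: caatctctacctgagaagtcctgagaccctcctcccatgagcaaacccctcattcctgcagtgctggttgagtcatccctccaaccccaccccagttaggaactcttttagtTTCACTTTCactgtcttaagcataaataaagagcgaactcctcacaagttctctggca
Gbp5: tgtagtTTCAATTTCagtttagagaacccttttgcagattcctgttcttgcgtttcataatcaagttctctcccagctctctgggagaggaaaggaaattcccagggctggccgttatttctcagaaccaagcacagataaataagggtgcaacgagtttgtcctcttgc
Gbp7: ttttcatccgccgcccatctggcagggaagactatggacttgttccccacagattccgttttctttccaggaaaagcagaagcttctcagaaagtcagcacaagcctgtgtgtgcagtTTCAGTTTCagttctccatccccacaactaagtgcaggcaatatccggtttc

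Across all 32851 RefSeq windows of 300 bases around start sites, 8.56% held the response element letters and 8.30% the gamma-activated letters. Of the 21 called genes 12 had such a window. The response element letters stood in 5 of these, namely Gbp2b, Gbp3, Gbp2, Arhgef6 and Ly86, and the gamma-activated letters in 2, namely 4930523C07Rik and Il1r2. In the 3 called Gbp genes the matches began 136, 44 and 58 bases before the start site, in the order Gbp2b, Gbp3 and Gbp2, with the overlapping match of Gbp3 at 38. Gbp5 and Gbp7 each held 1 response element match and 2 gamma-activated matches. The match of Arhgef6 began 26 bases before the start site, and that of Ly86 at the RefSeq start site and not before it. The 3 called Gbp genes are neighbours of 1 family and do not count as separate cases. These matches are letters in a window, and neither binding nor enrichment was tested.

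Gbp2b was at 105, 193 and 176 CPM in WT and at 5.25 and 2.42 in KO. Gbp3 was at 74.5, 108 and 101 CPM in WT and at 6.36 and 9.92 in KO. Gbp2 was at 69.9, 92.8 and 91.4 CPM in WT and at 9.08 and 12.7 in KO. All 3 genes were low in both KO libraries and high in all 3 WT libraries, and Gbp2b fell the most of the family. The log2 fold changes were -5.39 ± 0.37, -3.52 ± 0.25 and -2.95 ± 0.23 (SE, edgeR, adjusted p = 5.88e-09, 6.25e-09 and 3.41e-08). These 3 calls held in each of the 16 alternatives run.

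No other tested member of the family was called. Gbp5, on the same chromosome before Gbp3, was at 23.4, 40.7 and 20.4 CPM in WT and at 19.8 and 19.2 in KO, a log2 difference of -0.53 ± 0.25 that did not pass (edgeR, adjusted p = 0.77). Gbp7 had few counts, at 1.52 to 2.60 CPM in WT and 1.17 to 1.72 in KO. The chromosome 5 members had log2 differences of 0.27 ± 0.21 for Gbp8, -0.22 ± 0.14 for Gbp9 and -0.16 ± 0.23 for Gbp4. Of the related immunity-related GTPases, Irgm1 was at 13.4, 15.0 and 16.1 CPM in WT and at 19.8 and 20.2 in KO, a difference of 0.43 ± 0.22 that did not pass. Tgtp1 had 0, 0 and 4 counts in WT and 23 and 14 in KO, a fitted difference of 3.77 ± 1.83 that did not pass (edgeR, adjusted p = 0.78). Ifi47 differed by 0.88 ± 0.45 and Tgtp2 by 0.93 ± 0.80, and these 3 genes were named after their values were seen. Of the 15 GBPs and immunity-related GTPases tested, 8 lay below 0 and 7 above. Since reads aligning to more than 1 place were left uncounted, the values of this family come from the unique part of each gene.

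A list of 40 interferon-induced genes outside these GTPase families held no call. Of the 40 tested, edgeR, DESeq2 and limma called 0, the median log2 fold change was -0.04, and 6 had an unadjusted p under 0.05, 2 higher and 4 lower, beside 932 of all tested genes (6.42%). Ifitm3, an antiviral membrane protein, was at 27.3, 43.3 and 37.4 CPM in WT and 29.0 and 25.1 in KO, with overlapping groups. Usp18, a brake on type I interferon signalling, had a difference of -0.53 ± 0.22. Herc6, the ISG15 ligase of mouse, had a difference of 0.53 ± 0.23 in the other direction. Stat2 differed by -0.31 ± 0.14. Ifi27, an interferon-induced gene that is not on the list, was at 8.73, 10.4 and 7.53 CPM in WT and 3.23 and 4.33 in KO. Its difference of -1.23 ± 0.28 did not pass in edgeR (adjusted p = 0.103) and was called by DESeq2 (adjusted p = 0.0289) and by edgeR with no filter on low counts (adjusted p = 0.0193). Among 19 signal transducers of interferon and other cytokines, the same 3 tools called 0 and 0 had an unadjusted p under 0.05, and Ifngr1, a chain of the interferon-gamma receptor, was at 670 to 756 CPM in WT and 650 and 673 in KO.

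Slc15a2 encodes PEPT2, a proton-coupled transporter of dipeptides and tripeptides, and it had the smallest p of all genes. It was at 72.0, 79.9 and 75.1 CPM in WT and at 0.505 and 0.167 CPM in KO, which rest on 5 and 2 counts. The WT libraries lay close together and KO was nearly without counts. By edgeR the change was -7.83 ± 0.32 (log2, SE) at an adjusted p of 2.99e-13, and it fell by 99.6% on the linear scale. This SE was derived from the F statistic and can understate the error of so few KO counts. With single libraries left out the change was between -8.74 and -7.20. Slc15a3, a transporter of peptides and histidine in endolysosomes, was at 65.8, 90.9 and 87.7 CPM in WT and at 70.0 and 59.9 in KO. Its difference of -0.33 ± 0.14 did not pass (edgeR, adjusted p = 0.73). Slc15a4, the other endolysosomal member, differed by -0.09 ± 0.15, and Slc15a1 and Slc15a5 were below the count filter. None of the 23 tested neighbours within 1 Mb of Slc15a2 (chr16:36750177-36784962, GRCm38, minus strand) was called by edgeR, and 1 had an unadjusted p under 0.05.

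Among genes of the cell surface, Itgad rose. Itgad encodes the integrin alpha D chain, a partner of beta 2 that red pulp macrophages of the spleen express. It was at 4.56, 1.66 and 1.77 CPM in WT and at 16.5 and 22.4 in KO, so both KO libraries were well above all WT libraries. By edgeR the change was 2.85 ± 0.36 (log2, SE) at an adjusted p of 9.96e-05. None of the 63 tested neighbours within 1 Mb was called by edgeR. Of these, 6 had an unadjusted p under 0.05, beside 6.42% of all tested genes. No other integrin of 18 tested was called. The beta 2 chain Itgb2 was at 515 to 677 CPM in WT and at 578 and 683 in KO. Summed over 16 markers of red pulp macrophages, which were counted in 15 or 16 members per library, the level was 173 to 208 CPM in WT and 202 and 237 in KO. Slc40a1, the iron exporter of these macrophages, was at 3.11, 5.28 and 8.56 CPM in WT and 8.38 and 13.6 in KO, and overlapped. The part that macrophage RNA has in the Itgad value was not tested.

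Cd300a, Tnfsf9, Ly86 and Il1r2 fell. Cd300a, an inhibitory receptor for phosphatidylserine and phosphatidylethanolamine, was at 36.1, 27.8 and 41.5 CPM in WT and at 15.9 and 18.6 in KO (log2 fold change -1.02 ± 0.17 SE, adjusted p = 0.0070 by edgeR). Tnfsf9, which encodes the 4-1BB ligand, a costimulatory molecule, was at 12.1, 9.96 and 11.4 CPM in WT and 4.64 and 2.67 in KO (log2 fold change -1.62 ± 0.30 SE, adjusted p = 0.019 by edgeR). Ly86 encodes MD-1, which pairs with the Toll-like receptor relative RP105. It was at 67.8, 69.2 and 65.9 CPM in WT and 43.6 and 38.7 in KO (log2 fold change -0.72 ± 0.14 SE, adjusted p = 0.027 by edgeR). Il1r2, the decoy receptor for interleukin-1, was at 55.3, 50.9 and 43.5 CPM in WT and 33.4 and 33.8 in KO (log2 fold change -0.57 ± 0.11 SE, adjusted p = 0.030 by edgeR). In all 4 genes both KO libraries were below all WT libraries, and the ratio of the lowest WT to the highest KO library was smallest in Il1r2. Il1r2 overlaps Gm37347 on its own strand, which had 1615 counts over the 5 libraries beside 2608 for Il1r2.

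Each of these 4 calls was lost in edgeR when single libraries were left out, and all 4 were lost in limma-voom (adjusted p = 0.316 for Cd300a, 0.589 for Tnfsf9, 0.133 for Ly86 and 0.854 for Il1r2). When only the 5 libraries of this label were fitted, Tnfsf9 and Il1r2 were lost (edgeR, adjusted p = 0.154 and 0.577). Without KO 1 the adjusted p of edgeR was 0.209 for Cd300a, 0.119 for Ly86 and 0.289 for Il1r2. Without KO 2 it was 0.0522 for Cd300a, 0.28 for Tnfsf9, 0.276 for Ly86 and 0.22 for Il1r2. Without WT 1 it was 0.0544 for Tnfsf9, 0.0635 for Ly86 and 0.115 for Il1r2, without WT 2 it was 0.0525 for Ly86 and 0.0556 for Il1r2, and without WT 3 it was 0.0586 for Ly86.

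Cd300a and Il1r2 are also markers of the cDC2 lineage. Of 22 cDC2 markers tested, these 2 were called, beside 0.145% of all tested genes, and 18 lay below 0, beside 50.9% of all, with a median log2 fold change of -0.36, or -0.29 with genes that had no counts in KO set at their bound. The count of called markers was 0 without KO 1, 0 without KO 2, 1 without WT 1, 1 when only the 5 libraries of this label were fitted and 0 in limma-voom. It was 0 with the replicate block within the label, 2 with DESeq2, RLE scaling or unstranded counts, and 4 with no filter on low counts. By edgeR 8 of the 22 had an unadjusted p under 0.05, 7 lower and 1 higher, beside 6.42% of all tested genes. Tmem176a, a cation channel of dendritic cells, was at 17.9, 26.3 and 22.5 CPM in WT and 13.02 and 14.1 in KO, a difference of -0.71 ± 0.17 that did not pass (edgeR, adjusted p = 0.19). Cd209a, a C-type lectin, was at 4.63, 2.04 and 6.88 CPM in WT and 2.52 and 1.25 in KO and overlapped. The summed level of the 22 markers was 969 to 1118 CPM in WT and 935 and 985 in KO, and that of 20 cDC1 markers was 14493 to 15639 in WT and 14015 and 15567 in KO. None of the 20 cDC1 markers was called by edgeR, DESeq2 or limma, 0 had an unadjusted p under 0.05, and their median was -0.04. Of 10 genes that both lineages express, 0 were called by the 3 tools, 9 lay below 0, 3 had an unadjusted p under 0.05, all lower, and the sum was 29831 to 31410 CPM in WT and 26507 and 28851 in KO, without overlap. The part that cDC2 RNA has in the values of Cd300a and Il1r2 was not tested.

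Among genes of signalling and metabolism, Arhgef6 and Odc1 fell. Arhgef6 encodes alpha-PIX, an exchange factor for the small GTPases Rac and Cdc42. It was at 152, 106 and 121 CPM in WT and at 60.3 and 42.2 in KO (log2 fold change -1.31 ± 0.16 SE, adjusted p = 9.96e-05 by edgeR), and it was called in each of the 16 alternatives. Of 22 genes of Rac, Cdc42 and PAK signalling tested, no other was called, and the list's median was -0.09. Wasf2, an activator of actin branching, was at 227, 253 and 262 CPM in WT and 214 and 205 in KO, a difference of -0.24 ± 0.10 that did not pass. Cdc42 itself differed by -0.22 ± 0.12 and Rac1, outside the genes with the 4 smallest p and named for the pathway after its values were seen, by 0.17 ± 0.10.

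Odc1 encodes ornithine decarboxylase, the first enzyme of polyamine synthesis. It was at 165, 147 and 167 CPM in WT and at 85.6 and 73.9 in KO. The KO libraries stood near the 0.50-fold level (log2 fold change -1.001 ± 0.14 SE, adjusted p = 0.000644 by edgeR). The adjusted p was 0.0522 without KO 2. No other gene of 16 tested in polyamine metabolism was called, and their median was -0.05. Oaz1, the antizyme that sends ornithine decarboxylase to the proteasome, was at 29.0, 28.0 and 29.7 CPM in WT and at 51.4 and 25.7 in KO, so the KO libraries disagreed. Azin1, the antizyme inhibitor, named for its role after its values were seen, differed by 0.16 ± 0.13. Of 11 tested neighbours within 1 Mb of Odc1, none was called by edgeR. Of these, 3 had an unadjusted p under 0.05, beside 6.42% of all tested genes.

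Gcnt2 makes the branched I antigen on glycans. It was at 475, 415 and 440 CPM in WT and 303 and 317 in KO (log2 fold change -0.52 ± 0.10 SE, adjusted p = 0.024 by edgeR), the smallest change called. Tesk2, a kinase that phosphorylates cofilin, was at 3.34, 3.47 and 2.42 CPM in WT and 0.101 and 0.250 in KO, from 1 and 3 counts (log2 fold change -4.01 ± 0.78 SE, adjusted p = 0.029 by edgeR). Tesk2 overlaps Ccdc163 on its own strand and Toe1 on the other, which had 187 and 882 counts over the 5 libraries beside 120 for Tesk2, and the unstranded counts gave an adjusted p of 0.0929. Sbk1, a kinase named for binding SH3 domains, rose from 0.987, 0.679 and 1.21 CPM in WT to 2.93 and 6.17 in KO (log2 fold change 2.26 ± 0.44 SE, adjusted p = 0.028 by edgeR). It lies 1859359 bases from Itgad on chromosome 7, with 86 tested genes between them and no call among these.

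Each of these 3 calls was lost when single libraries were left out, and those of Tesk2 and Sbk1 also when only the 5 libraries of this label were fitted (edgeR, adjusted p = 0.296 and 0.693) and in limma-voom (adjusted p = 0.879 and 0.905). For Gcnt2 the adjusted p of edgeR was 0.0521 with unstranded counts, 0.0876 without WT 1, 0.0636 without WT 3, 0.289 without KO 1 and 0.137 without KO 2. For Tesk2 it was 0.0635 without WT 1, 0.0505 without WT 2, 0.345 without KO 1 and 0.156 without KO 2. For Sbk1 it was 0.0876 without WT 1, 0.107 without WT 2, 0.0576 without WT 3 and 0.431 without KO 2.

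Of the immunoglobulin genes tested, only Ighg3 and Igkj1 were called, and both rose. All immunoglobulin genes together held 0.0372%, 0.0296% and 0.0295% of gene counts in WT 1 to 3. They held 0.0301% in KO 1, within the WT range, and 0.0646% in KO 2. Ighg3, the constant region of IgG3, was at 0.380, 0.151 and 0.093 CPM in WT, from 5, 2 and 1 counts, and at 9.08 and 7.00 CPM in KO, from 90 and 84 counts. Both KO libraries were far above WT (log2 fold change 5.16 ± 0.64 SE, adjusted p = 9.96e-05 by edgeR), and limma-voom gave an adjusted p of 0.542. Igkj1, a joining segment of the kappa light chain, had 0, 2 and 1 counts in WT and 27 and 41 in KO, a ratio of 38.5 with a 95% counting interval of 12.6 to 191. Its adjusted p was 0.015 in edgeR, 0.284 when only the 5 libraries of this label were fitted and 0.811 in limma-voom. It was 0.0635 without WT 1, 0.0576 without WT 3 and 0.0732 without KO 2. Summed over 13 plasma cell markers, the level was 135 to 162 CPM in WT and 168 and 175 in KO. In WT 10 to 12 members were counted and in KO 12. Ighg3 is itself on this list, so the sum is not a measure separate from it. Of its 12 members tested, 9 lay above 0 and 3 below, and the lowest had a fitted log2 difference of -4.78. By edgeR 3 were higher and 1 lower at an unadjusted p under 0.05, beside 6.42% of all tested genes. The plasma cell marker Sdc1 was at 0, 0.151 and 0.093 CPM in WT and 1.01 and 0.667 in KO. Over 16 B cell markers the sum was 294 to 382 CPM in WT, 291 in KO 1 and 632 in KO 2. The part that RNA of these cells has in the immunoglobulin values was not tested. With immunoglobulin genes removed before scaling, 19 genes were called, and all 19 were among the 21.

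Of the remaining genes that rose, 2 are pseudogenes, which the naming rule left out and which are given here after their values were seen. Gm11942 was at 0.228, 0.226 and 0.093 CPM in WT, from 3, 3 and 1 counts, and at 16.4 and 20.1 in KO. Its log2 fold change was 6.53 ± 0.54 SE (adjusted p = 9.24e-08 by edgeR), an SE that can understate the error of so few WT counts. Over its 345 bases it is 97.4% identical to Rplp1, a gene of the large ribosomal subunit, which was at 830 to 1109 CPM in WT and 819 and 806 in KO. Gm6472 was at 64.9, 89.8 and 105 CPM in WT and at 198 and 148 in KO (log2 fold change 0.995 ± 0.17 SE, adjusted p = 0.0070 by edgeR), and its adjusted p was 0.313 without KO 1. Over 651 bases it is 99.4% identical to Rps7, which was at 4.46 to 7.82 CPM in WT and 8.38 and 3.75 in KO. Reads shared by a pseudogene and its parent gene align to more than 1 place and were not counted, so both values are uncertain.

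Ceacam16, which encodes a protein of the tectorial membrane of the inner ear, was at 0.683, 0.151 and 0.930 CPM in WT and at 3.33 and 2.67 in KO. Its fitted change was 2.36 ± 0.45 (edgeR, adjusted p = 0.027), from 86 counts over the 5 libraries. The adjusted p was 0.891 when only the 5 libraries of this label were fitted and 0.905 in limma-voom. It was 0.0559 with unstranded counts, 0.0597 without WT 1, 0.0647 without WT 2, 0.223 without KO 1 and 0.0732 without KO 2. The gene 4930523C07Rik was at 96.6, 104 and 110 CPM in WT and at 147 and 160 in KO (log2 fold change 0.57 ± 0.11 SE, adjusted p = 0.026 by edgeR). Its adjusted p was 0.0875 with unstranded counts, 0.109 without WT 1, 0.0766 without KO 1 and 0.257 without KO 2.

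Beyond the called genes, 12 were taken in order of p among those with groups that did not overlap and a mean of at least 1 CPM, so the lack of overlap was a condition of the choice. None passed in edgeR, and 4 were higher and 8 lower in KO. Milr1, an inhibitory receptor of mast cells, was at 10.2, 9.28 and 6.05 CPM in WT and 2.42 and 2.83 in KO (edgeR, adjusted p = 0.0522). Plcb4, a phospholipase C, was at 68.3, 57.2 and 73.7 CPM in WT and 112 and 114 in KO (edgeR, adjusted p = 0.0530). Dgke, a kinase that removes the diacylglycerol such lipases release, was at 28.5, 23.6 and 32.6 CPM in WT and 54.7 and 52.7 in KO. Both KO libraries of Plcb4 and of Dgke lay close together and above WT, with log2 differences of 0.77 ± 0.16 and 0.93 ± 0.19. Both were called when only the 5 libraries of this label were fitted (edgeR, adjusted p = 0.0030 and 0.0136), by DESeq2 (0.0054 for both) and by limma-voom (0.0119 and 0.0261). Mefv, which encodes the inflammasome sensor pyrin, was at 134, 124 and 120 CPM in WT and at 97.9 and 56.6 in KO, a difference of -0.71 ± 0.17 with KO 2 further below WT than KO 1. Mefv differed by -1.16 without KO 1, where it was called (edgeR, adjusted p = 0.0019), and by -0.37 without KO 2 (adjusted p = 0.64). Il2rb, the beta chain of the interleukin-2 receptor, was at 0.152, 0 and 0.558 CPM in WT and 1.51 and 3.83 in KO. The others were Emb, Hpcal1, Ube2e2, Ifi27, Tm7sf3 and Tmem176a, lower by 0.71 to 1.59 on the log2 scale, and the long noncoding RNA Kcnq1ot1, higher by 0.67. Emb, a partner of monocarboxylate transporters, moved from -1.38 to -0.86 without KO 1 and to -2.32 without KO 2, where it was called (edgeR, adjusted p = 0.0033). With unstranded counts Tm7sf3 moved from -1.59 to -0.93 and Il2rb from 3.54 to 1.64. DESeq2 called 11 of the 12 genes, all but Tmem176a. Hpcal1 lies within 1 Mb of Odc1.

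**Figure D2:**
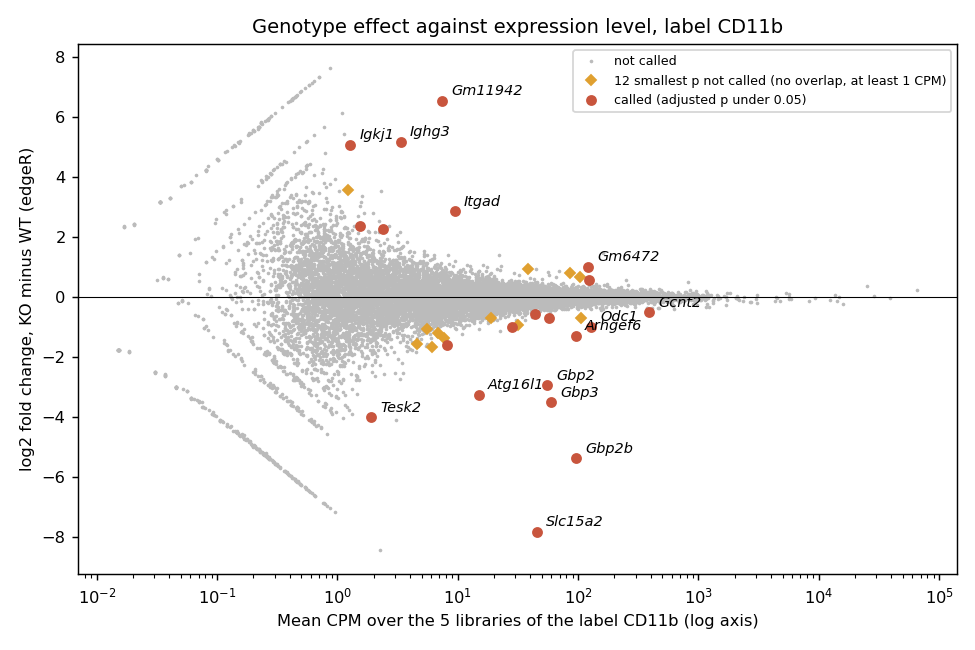
Log2 fold change of KO minus WT (edgeR) against mean CPM over the 5 libraries (log axis) for the 14528 genes tested. Called genes are red, the 12 uncalled genes with the smallest p among those without overlap and with at least 1 CPM are orange and all others are grey. Called genes above 10 CPM lie at or beyond the edge of the narrow band of the other genes, while below 1 CPM the grey band is as wide as the effects of called genes and holds no call.

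The width of the intervals went with the level of a gene. Over all tested genes the median log2 fold change was -0.01, and 2148 genes (14.8%) had a fitted difference beyond 2-fold. Of the 2504 genes under 1 CPM, 0 had a 95% interval of the fold change inside 2-fold either way, 1404 had a fitted difference beyond 2-fold, and 0 were called. Of 4663 genes at 1 to 10 CPM, 10.02% had such an interval and 8 were called. Of 5609 genes at 10 to 100 CPM, 91.2% had such an interval, 16 lay beyond 2-fold and 9 were called. Of 1752 genes over 100 CPM, 99.7% had such an interval, 2 lay beyond 2-fold and 4 were called. The median SE fell over these classes from 1.68 to 0.602, 0.206 and 0.113. Above 10 CPM the 95% intervals of most genes thus lay inside 2-fold either way, and below that level those of most genes reached beyond it. Each interval is for a single gene and rests on 2 KO libraries, so larger changes in some genes are not excluded. Under the unadjusted threshold of 0.05, 422 genes were higher and 510 lower, and 56 genes had an unadjusted p under 0.001.

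**Figure D3:**
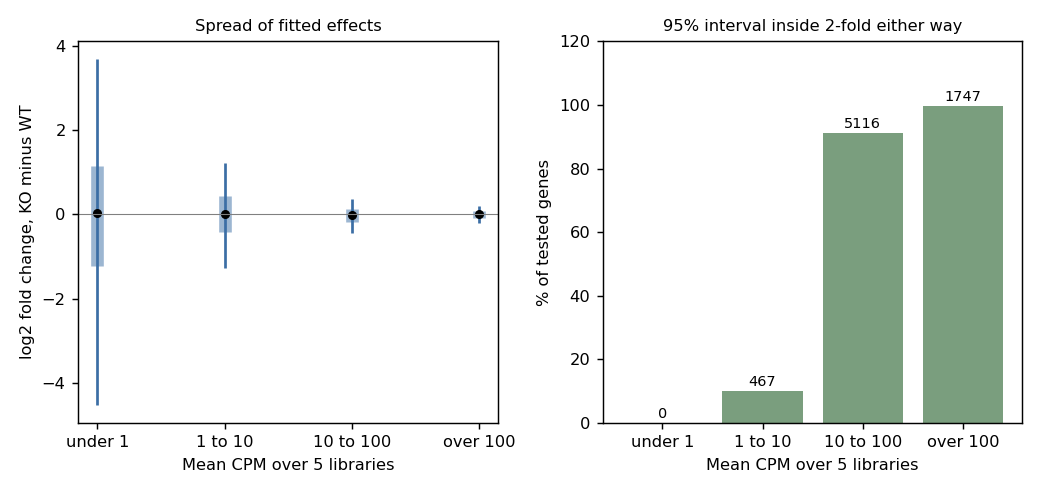
Left, median (point), middle 50% (thick bar) and 5th to 95th percentile (line) of the fitted log2 fold changes by class of mean CPM. Right, share of tested genes in each class whose 95% interval lies inside 2-fold either way, with the number of genes above each bar, from 0 under 1 CPM to 1747 over 100 CPM.

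Antigen presentation and lysosomal genes gave no call. Over all tested genes, 50.9% lay below 0 and 6.42% had an unadjusted p under 0.05 by edgeR. Of 17 genes of MHC class II presentation, edgeR, DESeq2 and limma called 0, 4 had an unadjusted p under 0.05, all lower, and the median was -0.15. H2-Ab1, a chain of the class II molecule, was at 8323, 9159 and 8402 CPM in WT and 7604 and 7902 in KO, and the groups did not overlap. Its difference was -0.15 ± 0.07. H2-Eb1 differed by -0.15 ± 0.07, the class II chaperone Cd74 by -0.13 ± 0.06 and H2-Oa, a modulator of peptide loading, by -0.26 ± 0.12. Of 22 genes of class I and cross-presentation, the same tools called 0 and 0 passed the unadjusted threshold of 0.05, and the median was -0.05. Of 38 lysosomal genes they called 0, 30 lay below 0, 5 had an unadjusted p under 0.05, all lower, and the median was -0.09. Tpp1, a lysosomal peptidase, was at 19.0, 16.1 and 14.7 CPM in WT and 9.59 and 8.50 in KO, a difference of -0.88 ± 0.25 that did not pass (edgeR, adjusted p = 0.34). Gla, Ctsa and Gaa, further enzymes of the lysosome, differed by -0.51 ± 0.20, -0.30 ± 0.13 and -0.37 ± 0.16.

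Lists of lipid and stress genes held no call. Their counts under the unadjusted threshold stand beside 6.42% of all tested genes. Of 14 genes of LXR and sterol efflux, 0 were called by the 3 tools, and 4 had an unadjusted p under 0.05, 1 higher and 3 lower. Abcg1, a cholesterol exporter, was at 151, 177 and 188 CPM in WT and 123 and 132 in KO, and Apoe, the lipid carrier, was at 194, 192 and 151 in WT and 128 and 138 in KO. Neither gene overlapped between groups, and neither difference passed (-0.43 ± 0.13 and -0.42 ± 0.13, edgeR, adjusted p = 0.46 and 0.49). Of 22 targets of SREBP 0 were called by the 3 tools and 2 had an unadjusted p under 0.05. Of 23 genes of the unfolded protein and ATF4 response, 0 were called by the 3 tools, and 4 had an unadjusted p under 0.05, all lower, among them Atf3 at -0.39 ± 0.16 and Atf4 at -0.26 ± 0.11. Of 17 targets of NRF2, 0 were called by the 3 tools and 2 had an unadjusted p under 0.05, with the peroxidase Prdx1 at -0.55 ± 0.18. Of 33 nuclear genes of oxidative phosphorylation 0 were called by the 3 tools and 1 had an unadjusted p under 0.05. Of 7 mitochondrially encoded genes tested, 0 were called by the 3 tools, 2 had an unadjusted p under 0.05, both higher, and the median was 0.11, with mt-Nd5 at 915, 894 and 874 CPM in WT and 954 and 1099 in KO.

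Immediate early genes, which dissociation of a tissue can induce, lay below 0 in all 28 members tested, beside 50.9% of all tested genes. edgeR, DESeq2 and limma called 0 of them, 9 had an unadjusted p under 0.05, beside 6.42% of all tested genes, and the median was -0.22. Their summed level was 20250.0 to 20960 CPM in WT and 17695 and 18736 in KO. Fosb, a subunit of AP-1, was at 1473, 1148 and 1433 CPM in WT and 1066 and 1042 in KO, a difference of -0.36 ± 0.10. The number below 0 was 24 without KO 1 and 26 without WT 2, and 28 with RLE scaling.

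The lists of innate sensing and cytokine genes below held no call in edgeR, and DESeq2 called 1 member, Mefv. Ly86 and Il1r2, which were called, are not on these lists. Counts of members under the unadjusted threshold stand beside 6.42% of all tested genes. Of 23 chemokines and chemokine receptors, 0 were called by the 3 tools and 4 had an unadjusted p under 0.05, all lower. Ccl6 was at 16.2, 19.6 and 20.0 CPM in WT and 11.9 and 11.2 in KO, a difference of -0.69 ± 0.21, and Cxcr4, a receptor that guides cells to CXCL12, differed by -0.35 ± 0.12. Of 16 cytokines 0 were called by the 3 tools and 2 had an unadjusted p under 0.05. Il1b was at 664, 604 and 732 CPM in WT and 561 and 532 in KO, a difference of -0.29 ± 0.11, and Il12b, a subunit of interleukin-12, overlapped at 169 to 242 in WT and 167 and 176 in KO. Of 20 genes of Toll-like receptors 0 were called by the 3 tools and 2 had an unadjusted p under 0.05, Tlr7 higher at 0.82 ± 0.28 and Tlr9 lower at -0.31 ± 0.15. Of 16 inflammasome and NOD receptor genes edgeR and limma called 0, DESeq2 called Mefv (adjusted p = 0.0294), and 4 had an unadjusted p under 0.05. Of 28 transcription factors of dendritic cell lineages, 0 were called by the 3 tools and 3 had an unadjusted p under 0.05. Cebpb, a factor of myeloid cells, was at 6.91, 5.05 and 11.3 CPM in WT and 12.7 and 15.8 in KO, a difference of 0.90 ± 0.24 that did not pass (edgeR, adjusted p = 0.24).

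**Figure D4:**
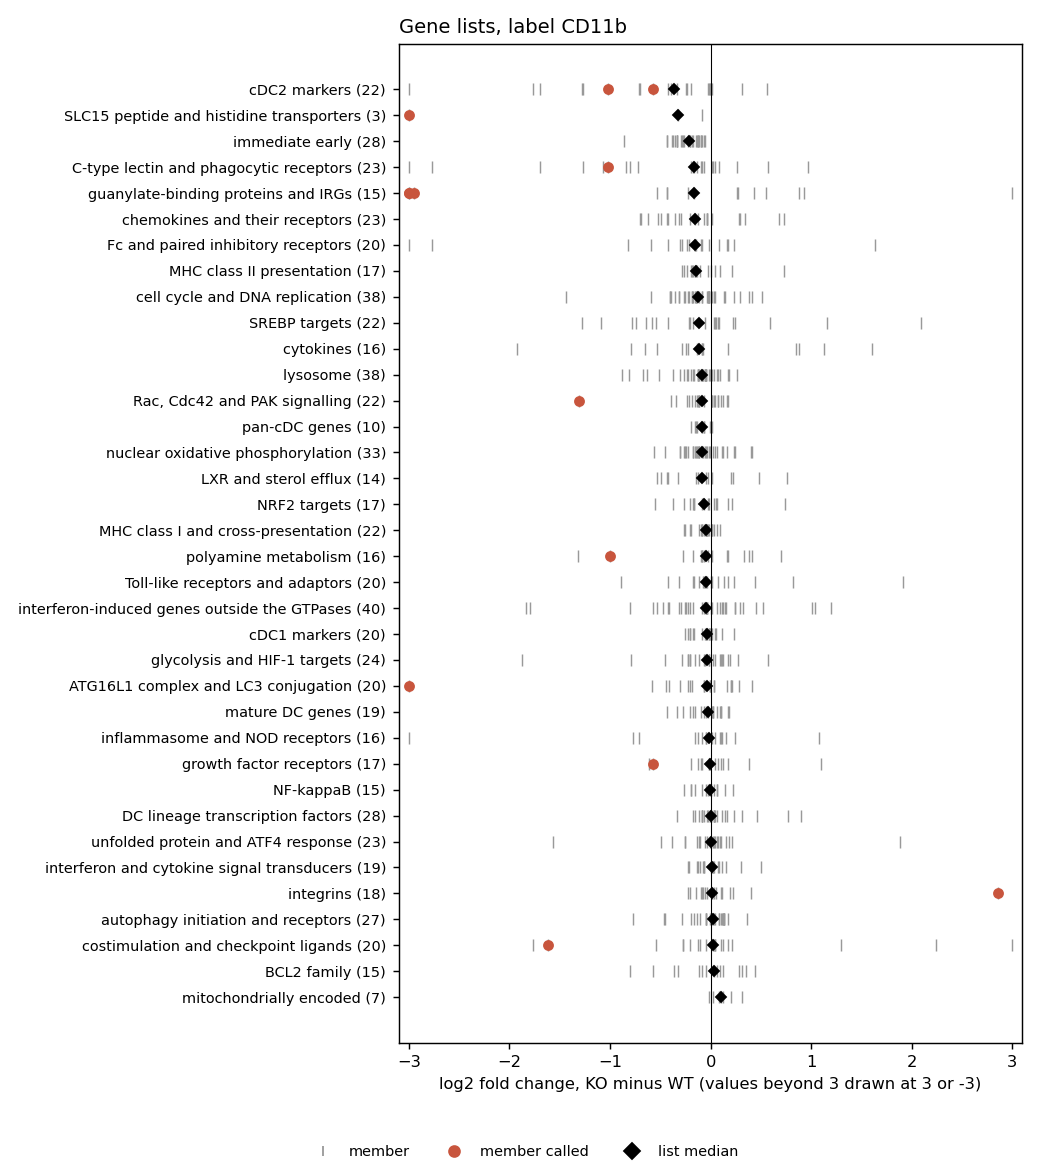
Log2 fold change of KO minus WT for each tested member (grey ticks), called members (red) and the median (black diamond) of 36 gene lists, with the number tested in brackets. Values beyond 3 in either direction are drawn at the edge. Medians lie between -0.36 and 0.11, and no list holds more than 1 called member, apart from the 3 guanylate-binding proteins and the 2 cDC2 markers.

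Markers of other cell types were also summed per library. Of 13 neutrophil markers S100a8 and S100a9 had no counts in any of the 5 libraries, and the list summed to 1.74 to 3.72 CPM in WT and 3.33 and 4.50 in KO. T cell markers summed to 26.2 to 40.0 CPM in WT and 28.9 and 34.5 in KO, with Cd3d at 0 in all 5. Plasmacytoid dendritic cell markers summed to 187 to 278 CPM and to 220 and 232, and monocyte markers, several of which dendritic cells express, to 2834 to 3018 and to 2627 and 2673. Erythroid and platelet markers summed to 9.13 to 26.2 CPM in WT, with the highest in WT 3, and to 8.38 and 6.25 in KO. Groups overlapped in the neutrophil, T cell and plasmacytoid sums and did not overlap in the monocyte and erythroid sums.

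**Figure D5:**
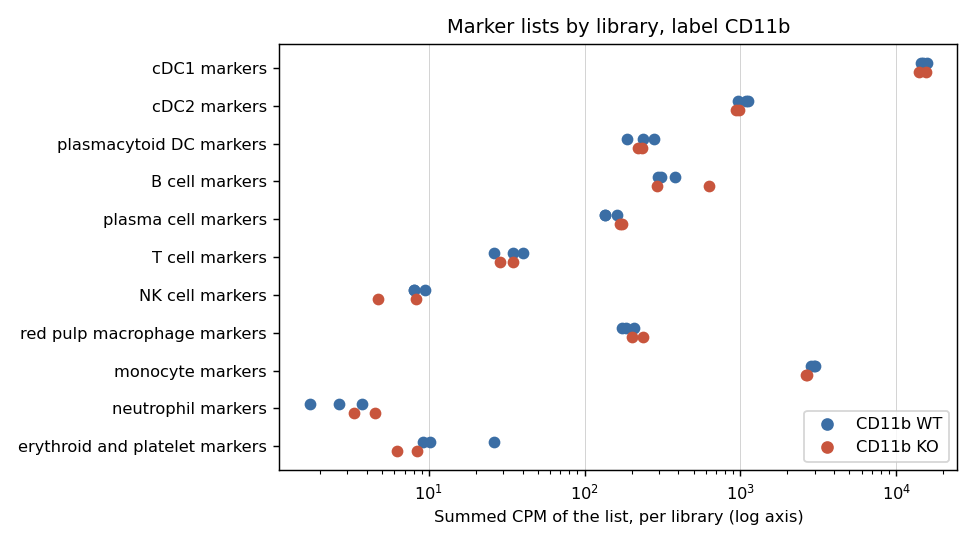
Summed CPM (log axis) of marker lists for dendritic cell lineages and other cells in the 3 WT (blue) and 2 KO (red) libraries. Of the lists drawn, the cDC1 sum is the highest in all 5 libraries, and 1 KO library stands apart in the B cell sum at 632 CPM.

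The genotype effect was also compared with that in the libraries labelled CD8 by a test of the difference. It was called for 3 genes (0.0206% of those tested). For Gbp3 and Gbp2 the fall was larger at the label CD11b, by 2.84 and 2.74 on the log2 scale (edgeR, adjusted p = 2.73e-05 for both). For Plcb4 the effect at the label CD11b was smaller, by 2.62 (edgeR, adjusted p = 4.72e-06). Of the 21 genes called here, 8 were also called at the label CD8, and the difference was called for 2. The share of all tested genes called at the label CD8 is not given here, so the 8 are not set against it.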

How the data were processed

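STAR 2.5.0a and GRCm38 were used for alignment, per the submitters' processing notes, and the authors deposited raw counts per gene. The column for the strand of the kit was used, whose sum was 16.1 times that of the opposite strand. Lines for reads given to no gene, 59.2% to 63.5% of reads in the 5 libraries, were dropped. Symbols came from GENCODE, which held 53274 of 53379 identifiers. Counts were scaled by TMM and filtered by filterByExpr, and edgeR 4.0.16 fitted 4 group means to all 10 libraries (14528 genes, 6 residual degrees of freedom). P-values were adjusted by Benjamini-Hochberg. Standard errors (SE) were derived from the fold change and F statistic, and can be too small where a group has few counts. On simulated counts the model recovered 56 of 100 changes of 2-fold and 71 of 100 of 4-fold, with 7 false among 134 calls. The changed genes were drawn from those with an expected count of at least 10, and counts used the fitted dispersions. More changes were planted than genes were called in the data, which eases the adjusted threshold, so recovery in the data can be lower. Counting intervals cover counting error only. DESeq2 1.42.0, limma 3.58.1 and other settings were alternatives. Of 46 gene lists, 902 of 902 entries matched. Named were called genes other than predicted models, the next 12 by p without overlap and with at least 1 CPM, families of called genes, and up to 4 members per list by smallest p. Libraries, genes and lists were chosen with earlier results of these data known. Deviations from the group means correlated at 0.0594 and 0.0164 between WT and KO libraries of the same number. The deviations of the 2 KO libraries mirror each other, so these values cannot decide whether the numbers pair the samples.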

Additional observations from a re-analysis of the deposited data

Results flagged for a closer look

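A test of the difference between the genotype effects at the labels CD11b and CD8 singled out 3 genes. For Gbp3 the difference, label CD11b minus label CD8, was -2.84 ± 0.31 on the log2 scale, from -3.52 ± 0.25 at the label CD11b and -0.68 ± 0.21 at the label CD8, where mean levels were 60.5 CPM in WT and 37.8 in KO. For Gbp2 it was -2.74 ± 0.29, from -2.95 ± 0.23 and -0.21 ± 0.20. For Plcb4 it was -2.62 ± 0.24, since the gene was 11.9 CPM in WT and 124 CPM in KO at the label CD8 and 66.4 and 113 CPM at the label CD11b. Mean levels at the label CD8 are over 3 WT and 2 KO libraries.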

How the results depend on the processing

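The count of 21 called genes came to 25 with RLE size factors, 21 with a filter at 1 CPM in 3 libraries, 19 with unstranded counts, 21 without mitochondrial and ribosomal RNA genes, 15 with limma-voom, 11 of them among the 21, 24 with the 5 libraries alone, 15 of them among the 21, and 14 to 29 with single libraries left out, 10 to 17 of them among the 21. The 5 libraries alone lost Igkj1, Tnfsf9, Ceacam16, Sbk1, Tesk2 and Il1r2. It was 71 with no filter on low counts and 42 with DESeq2. A replicate block on the number gave 29 over the 4 groups and 46 within the label CD11b, 14 of which were among the 21. Whether the numbers pair the samples could not be decided, so the block is given only as an alternative. Removal of immunoglobulin genes, added after the data were seen, gave 19. No direction of the 21 genes turned in the 16 alternatives, 7 genes (Slc15a2, Gbp2b, Gbp3, Gbp2, Gm11942, Arhgef6 and Itgad) were called in each, and 14 were lost in at least 1. Causes of these changes were not tested. Below 10 CPM the 95% intervals of most genes reached beyond 2-fold, and depth was not separated from the spread between libraries.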
